A study of Mus musculus with 12 samples.

Results

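The genes described here are 42 mitotic and S phase genes of mouse liver. They were taken from a list of 43 genes of the dividing cell, licensing genes left out, by requiring a normalized value of at least 10 in at least 3 of the 12 libraries. Bub1, a spindle checkpoint kinase, was listed and did not meet the minimum, since it reached 10 in 1 library. The same minimum was met by 13871 of the 47263 genes in the table. Just inside it lay Kif23 and Cdc25c, which reached 10 in 4 libraries each.

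RNA was sequenced from whole liver in 4 groups of 3 libraries, which cross a hepatocyte deletion of Sirt2 with an oncogene injection. KO MET/CAT livers carried the Sirt2 deletion and received MET and beta-catenin plasmids, WT MET/CAT livers received the same plasmids, KO GFP livers carried the deletion and received GFP, and WT GFP livers were wild type with GFP. For the oncogene groups the labels describe a hydrodynamic tail vein injection, in which a large volume (2 mL) is pushed in within seconds so that some liver cells take up the DNA. The cocktail held 50 µg of plasmid in all, with the Sleeping Beauty transposase on HSB2 and the transposons pT3-EF1a-c-MET and pT3-EF1a-DN90-β-Catenin, the second an N-terminally truncated beta-catenin, so that both oncogenes were driven by the EF1a promoter. Neither the dose of the GFP plasmid nor the Cre driver of the Sirt2 deletion is given in the labels. The mice were injected at 6 to 8 weeks of age and killed 8 weeks after that. Group names are those of the sample titles, which the labels' treatment entry contradicts for the KO GFP and WT MET/CAT libraries. The labels do not state that each replicate is a separate mouse, so that the p-values below speak of the spread between libraries, which may be technical.

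A dividing cell passes from G1 into S phase, when DNA is copied, and then through G2 into mitosis, when the copies are drawn apart. Cyclins and their kinases drive these steps, E2F factors switch on the genes of S phase, and FOXM1 and the MuvB complexes switch on those of mitosis. Hepatocytes of the adult liver are mostly quiescent, and their genes for division are low until injury, resection or an oncogene brings them back into the cycle. SIRT2, a cytoplasmic deacetylase of the sirtuin family, is known to act on proteins of mitosis, among them the activators of the anaphase-promoting complex.

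Sirt2 itself (chr7:28766735-28788661, GRCm38) lay at 248.1, 234.3 and 200.6 normalized reads in KO MET/CAT livers and at 1068, 942.7 and 908.4 in WT MET/CAT livers. It lay at 232.6, 182.5 and 125.7 normalized reads in KO GFP livers and at 823.7, 923.6 and 725.8 in WT GFP livers, so the libraries matched their labelled genotype and all KO livers kept some Sirt2 reads. The libraries held 18208879 to 24352961 reads. KO GFP 3 stood apart, at -88.95 on a first principal component (21.96% of the variance). The other libraries lay between -33.18 and 52.78 on it. Deviations in KO GFP 3 followed gene length with a Spearman's rho of 0.4354 across genes. In the other libraries rho ran from -0.3338 in WT GFP 2 to 0.1726 in WT MET/CAT 2. In replicate order it was -0.2078, -0.3338 and 0.01414 in WT GFP livers and 0.1099, -0.08511 and 0.4354 in KO GFP livers. All 8 hepatocyte markers were measured, with a summed level of 2155000 to 3588000 normalized reads per library, and in bulk liver fewer dividing cells and less RNA per dividing cell cannot be told apart.

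Many genes of mitosis share short letters in their promoters, the CCAAT box bound by NF-Y and the cell cycle homology region (CHR) bound by the MuvB complexes, while many genes of S phase carry E2F sites. Windows of 300 bases around the gene start (250 before to 50 after it) were taken from RefSeq on GRCm38.p6 and were found for 34 of the 43 listed genes, in 36 windows. On both strands, CCAAT was searched for the CCAAT box, TTTGAA or TTCGAA for the CHR, and TTGGCGC or TTCCCGC for an E2F site, and a reverse TTGGCGC can overlap a CCAAT. CHR letters were found in 61.1% of the windows, against 19.2% of all 32851 windows in the table. CCAAT letters were found in 75% of the windows and in 37.4% of all, and E2F letters in 22.2% and 6.81%. CCAAT and CHR letters stood together in 58.3% of the windows and in 7.52% of all. The windows of the mitotic cyclin Ccnb2 (chr9:70421505-70421804, minus strand), of the mitotic exit activator Cdc20 (chr4:118437294-118437593, minus), of the DNA untangling enzyme Top2a (chr11:99024140-99024439, minus) and of the ubiquitin-conjugating enzyme Ube2c (chr2:164769679-164769978, plus) are shown as genes of mitosis with both kinds of letters. Ect2 (chr3:27153805-27154104, minus) and Pcna (chr2:132253131-132253430, minus) are shown because limma called them in the comparisons of plasmids below. Each is written 5′ to 3′ on the gene's strand, and capitals mark the CCAAT, CHR and E2F letters on either strand.
Ccnb2: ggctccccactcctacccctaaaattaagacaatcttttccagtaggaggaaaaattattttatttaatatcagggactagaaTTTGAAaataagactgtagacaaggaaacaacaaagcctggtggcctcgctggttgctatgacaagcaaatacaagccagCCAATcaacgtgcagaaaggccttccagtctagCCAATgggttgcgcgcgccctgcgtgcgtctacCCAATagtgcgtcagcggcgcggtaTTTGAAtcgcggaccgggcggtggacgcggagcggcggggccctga
Cdc20: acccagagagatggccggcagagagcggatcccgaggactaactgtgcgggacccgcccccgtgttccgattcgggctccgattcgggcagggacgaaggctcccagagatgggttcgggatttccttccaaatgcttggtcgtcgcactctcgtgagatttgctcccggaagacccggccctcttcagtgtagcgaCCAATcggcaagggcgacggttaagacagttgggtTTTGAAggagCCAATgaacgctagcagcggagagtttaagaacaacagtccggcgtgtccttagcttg
Top2a: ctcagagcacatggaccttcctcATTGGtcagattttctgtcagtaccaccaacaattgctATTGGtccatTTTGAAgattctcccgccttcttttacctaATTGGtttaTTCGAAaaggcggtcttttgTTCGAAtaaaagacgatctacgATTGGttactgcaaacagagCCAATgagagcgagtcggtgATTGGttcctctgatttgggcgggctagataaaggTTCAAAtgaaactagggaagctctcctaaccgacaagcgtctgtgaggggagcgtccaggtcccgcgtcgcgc
Ube2c: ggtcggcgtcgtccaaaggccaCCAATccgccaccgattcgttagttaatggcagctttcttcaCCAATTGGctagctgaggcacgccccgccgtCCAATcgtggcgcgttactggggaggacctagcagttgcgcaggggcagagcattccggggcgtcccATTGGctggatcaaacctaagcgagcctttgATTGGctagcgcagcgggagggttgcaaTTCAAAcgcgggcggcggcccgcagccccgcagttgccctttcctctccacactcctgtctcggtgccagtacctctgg
Ect2: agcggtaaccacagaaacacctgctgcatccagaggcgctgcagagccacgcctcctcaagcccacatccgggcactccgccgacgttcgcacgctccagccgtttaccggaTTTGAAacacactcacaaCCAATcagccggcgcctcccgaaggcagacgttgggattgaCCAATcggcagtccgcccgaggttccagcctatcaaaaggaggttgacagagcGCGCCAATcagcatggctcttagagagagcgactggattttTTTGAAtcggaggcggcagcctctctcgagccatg
Pcna: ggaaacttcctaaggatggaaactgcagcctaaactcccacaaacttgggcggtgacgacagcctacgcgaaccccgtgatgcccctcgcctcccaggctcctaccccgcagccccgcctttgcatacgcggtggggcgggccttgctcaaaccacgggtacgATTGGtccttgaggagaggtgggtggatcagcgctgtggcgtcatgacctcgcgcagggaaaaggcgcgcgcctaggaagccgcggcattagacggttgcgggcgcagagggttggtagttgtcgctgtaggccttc

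These letters describe the windows and do not show that a factor binds them. Ccnb2 held 3 CCAAT and 2 CHR matches, Cdc20 2 and 1, Top2a 6 and 4, and Ube2c 6 and 1. Ect2 held 3 CCAAT and 2 CHR matches with 1 E2F match that overlaps a CCAAT, and Pcna held 1 CCAAT match and none of the others. The 19 measured members with CHR letters had a median within-group SD of 1.12 on the log2 scale and a median level of 39.3 normalized reads. The 14 measured members whose window lacked them had a median SD of 0.508 and a median level of 136 normalized reads, so the sets differed in level as well as in spread. The 9 without a window in the table were Aurkb, Ccna2, Ccnd1, Ccne2, Cdc25c, Foxm1, Kif20a, Smc4 and Tpx2.

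Divided by exon length, the highest members were genes of G1 and S phase. Pcna, the sliding clamp of DNA polymerase, averaged 218 normalized reads per kb of exon over the 12 libraries, Cdk4, the kinase of D cyclins, 216, Tk1, the thymidine kinase, 166, Ccnd1, the G1 cyclin D1, 119, and Rrm2, the small subunit of ribonucleotide reductase, 73.2. The lowest were Kif23 at 1.15, Cenpf at 1.49, Prc1 at 1.64, Cdc25c at 1.72 and Cenpe at 1.84 normalized reads per kb, of which Cdc25c belongs to the CDK regulators and the others to the spindle and midzone. At such levels single libraries can miss a gene: Ccnb1, Cdc25c and Cenpf had no read in KO MET/CAT 1, Kif20a had none in KO MET/CAT 3, and Anln, Kif23 and Cenpe had none in WT GFP 2. A count of 0 allows up to 3.61 normalized reads in KO MET/CAT 1, 3.18 in KO MET/CAT 3 and 3.4 in WT GFP 2. These limits cover counting error only.

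The members tended to be high together or low together in a library, within every group but WT MET/CAT. Their median log2 deviation from each gene's mean was -0.68, 0.71 and -0.19 in KO MET/CAT livers and -0.04, -0.12 and -0.10 in WT MET/CAT livers. It was -0.08, 0.73 and 1.32 in KO GFP livers and 0.55, -0.74 and -0.66 in WT GFP livers. High libraries thus stood in KO MET/CAT, KO GFP and WT GFP, and the 4 groups overlapped. The SD of this median between libraries of a group was 0.616. KO GFP 3 held the highest value of 24 of the 42 members, against 18.5% of all tested genes that were highest there. KO MET/CAT 2 held 8 (9.49% of all genes), KO GFP 2 and WT GFP 1 held 4 each (3.92% and 3.98%), and WT GFP 2 held 2 (13.2%). The lowest value was in WT GFP 2 for 12 members (12.1% of all genes) and in KO MET/CAT 1 for 10 (8.77%). KO GFP 3 held the lowest value of 1 member, but of 24.5% of all genes.

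**Figure D1:**
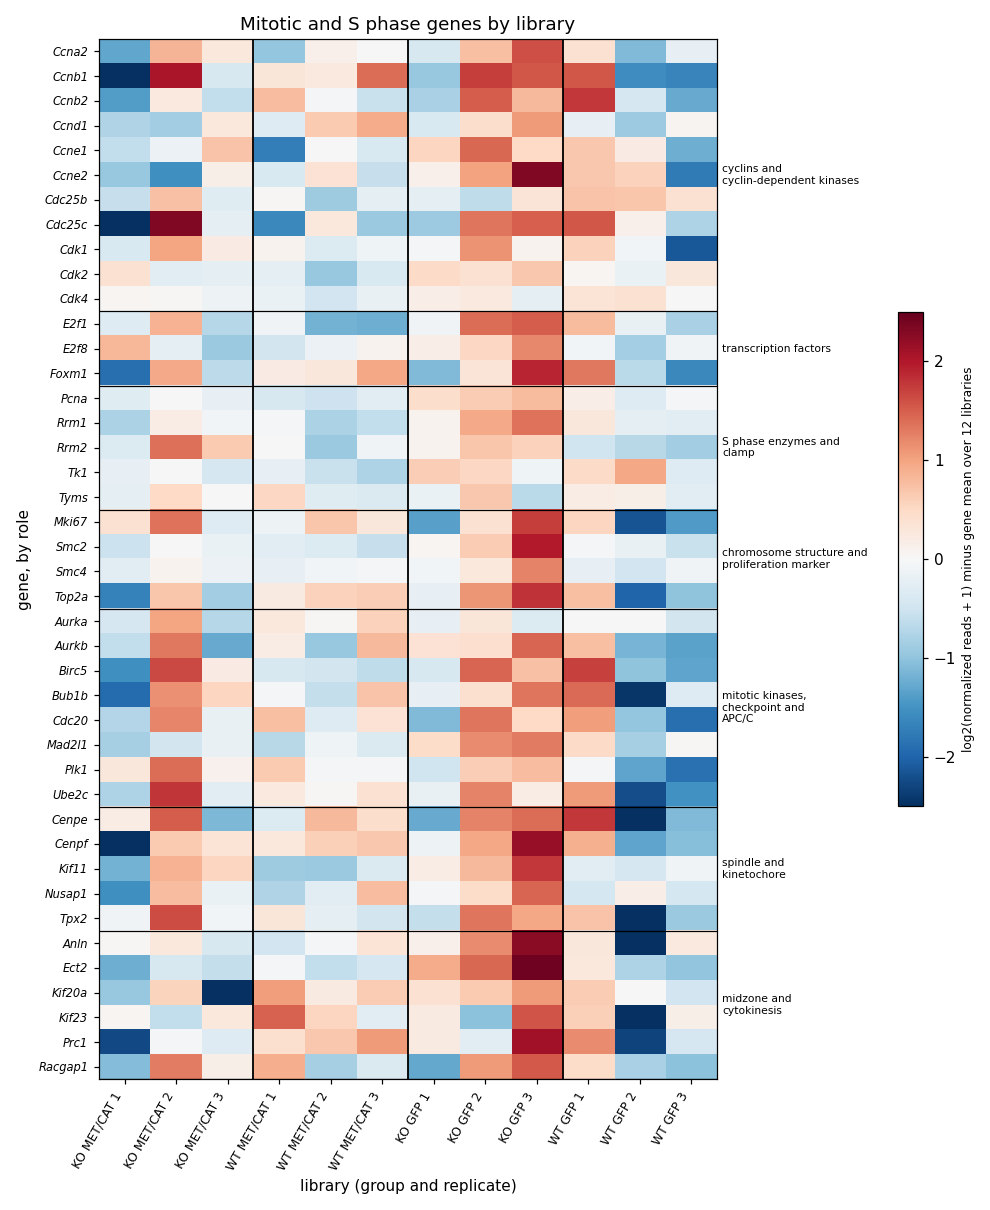
Each row is 1 of the 42 genes and each column 1 of the 12 libraries, and colour gives log2(normalized reads + 1) minus the gene's mean over the 12 libraries (red higher, blue lower, limited to 2.5 either way). Whole columns tend to be red or blue within a group, as in KO MET/CAT 2 and WT GFP 2.

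Single members spread widely. The median within-group SD of the 42 members was 0.869 on the log2 scale, against 0.417 over all tested genes. Ccnb1 (2.01), the kinetochore motor Cenpe (1.68), the CDK1 phosphatase Cdc25c (1.59) and the kinetochore protein Cenpf (1.56) had the largest SD. Pcna (0.182), Cdk4 (0.198), the S phase kinase Cdk2 (0.297) and the condensin subunit Smc4 (0.372) had an SD below the median of all genes, and all 4 averaged over 100 normalized reads. The spread was not the same in all roles. In KO MET/CAT 2 the mitotic kinases, checkpoint and APC/C genes had the highest median deviation of the 7 role groups, and in KO GFP 3 the genes of the midzone and of chromosome structure did.

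**Figure D2:**
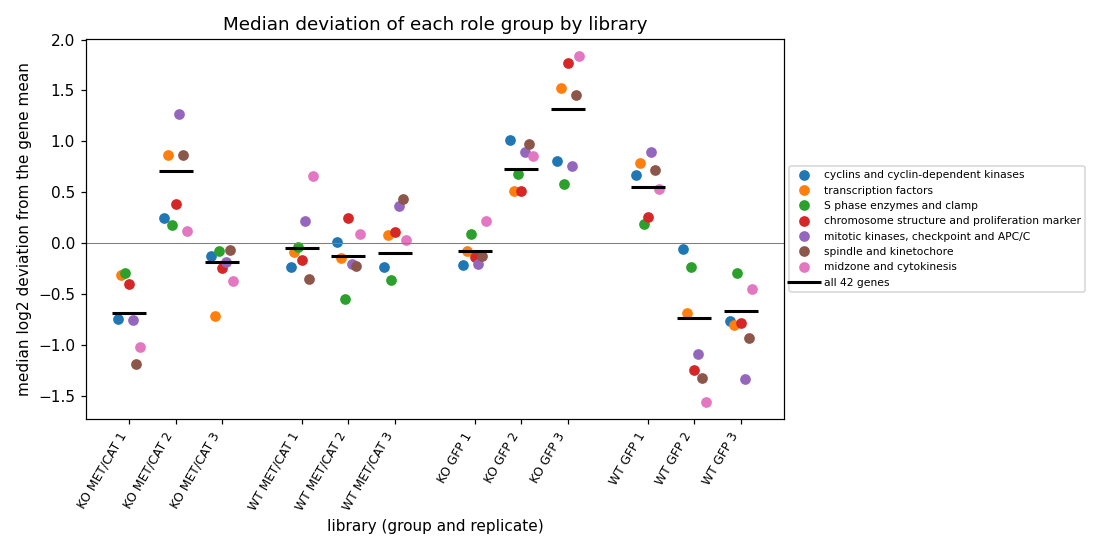
Points give the median log2 deviation from the gene mean of each of 7 role groups in each library, and black lines the median of all 42 genes. The lines run from -0.74 in WT GFP 2 to 1.32 in KO GFP 3, and the KO GFP libraries alone run from -0.08 to 1.32.

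Mki67, whose product coats the chromosomes of dividing cells and marks proliferation, had 117, 228 and 71.1 normalized reads in KO MET/CAT livers and 81.7, 144 and 108 in WT MET/CAT livers, with 33.9, 116 and 297 in KO GFP livers and 130, 19.3 and 32.9 in WT GFP livers. All 4 groups overlapped, and the values spanned 15.4-fold. Top2a had 15.7, 85.8 and 28.7 in KO MET/CAT livers and 61.8, 79.1 and 81.2 in WT MET/CAT livers, with 45.9, 115 and 187 in KO GFP livers and 89.8, 12.5 and 26.0 in WT GFP livers. Its values were close together in WT MET/CAT livers and spread in the other groups. Cdk1, the kinase that drives entry into mitosis, had 54.2, 141 and 81.7 in KO MET/CAT livers and 75.8, 55.9 and 65.6 in WT MET/CAT livers, with 69.3, 156 and 75.0 in KO GFP livers and 106, 68.0 and 15.6 in WT GFP livers. Its partner cyclin B1, Ccnb1, had 0, 79.5 and 13.8 in KO MET/CAT livers and 22.9, 22.1 and 50.0 in WT MET/CAT livers, with 9.03, 63.4 and 56.0 in KO GFP livers and 55.8, 5.67 and 5.20 in WT GFP livers. KO MET/CAT 2, KO GFP 2 and WT GFP 1 were the highest libraries of their groups for both Cdk1 and Ccnb1. Foxm1, the transcription factor of mitotic genes, had 4.82, 40.8 and 12.7 in KO MET/CAT livers and 23.9, 25.3 and 41.1 in WT MET/CAT livers, with 9.03, 25.9 and 79.6 in KO GFP livers and 52.9, 12.5 and 6.06 in WT GFP livers. No pair of groups was separated for Foxm1.

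Pcna, Rrm2 and Ccnd1, of S phase and G1, averaged over 100 normalized reads in every group. Pcna had 408, 508 and 435 normalized reads in KO MET/CAT livers and 378, 348 and 412 in WT MET/CAT livers, with 678, 782 and 867 in KO GFP livers and 565, 403 and 495 in WT GFP livers. All 3 KO GFP libraries lay above the other 9. Rrm2 had 142, 469 and 286 in KO MET/CAT livers and 180, 94.9 and 170 in WT MET/CAT livers, with 192, 294 and 271 in KO GFP livers and 128, 111 and 97.9 in WT GFP livers. The KO GFP libraries lay above the WT GFP libraries, and the MET/CAT groups overlapped. Ccnd1, a target of MET signalling and of beta-catenin in several cell types, had 302, 276 and 607 in KO MET/CAT livers and 406, 794 and 967 in WT MET/CAT livers, with 391, 691 and 1067 in KO GFP livers and 442, 270 and 532 in WT GFP livers. Its 4 groups overlapped.

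**Figure D3:**
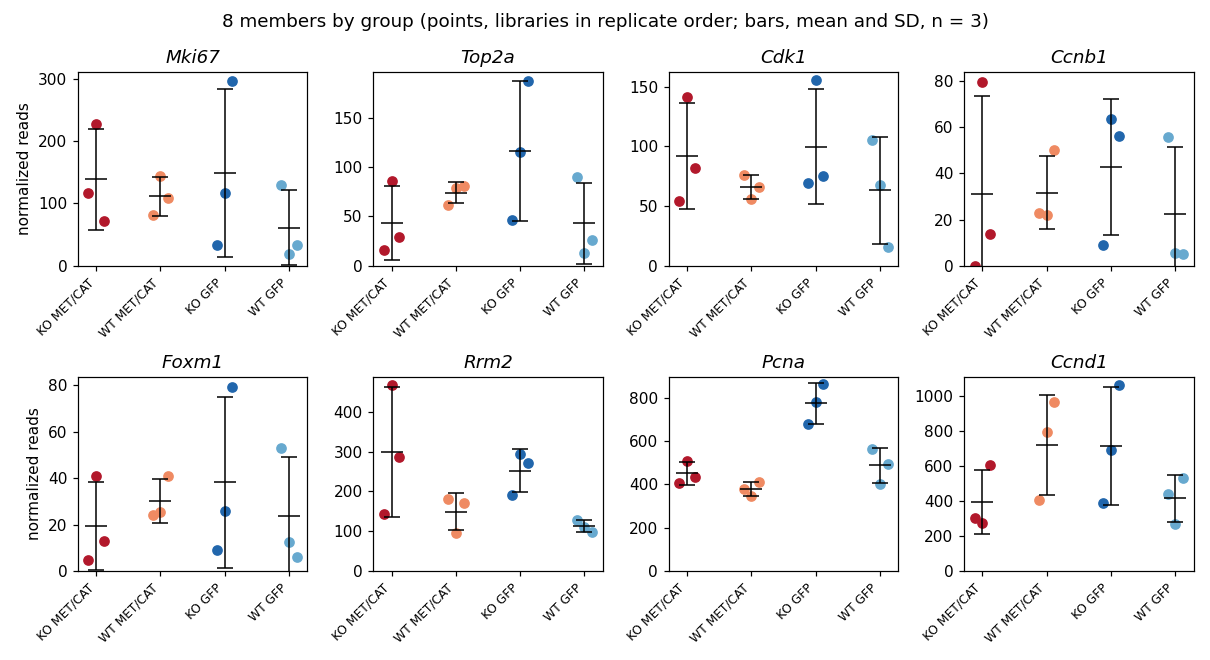
Points are normalized reads in each library of 8 members, in replicate order within a group, with the mean and SD of 3 libraries (bars cut at 0 where they would run below it) and axes from 0. Pcna is the panel in which KO GFP libraries (678 to 867) lie above all others, and in the other 7 panels at least 1 library of another group reaches into their range.

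Whether Sirt2 loss changed these genes in oncogene livers was asked by comparing KO MET/CAT with WT MET/CAT livers. By limma over all 13871 genes, 0 of 42 members passed an adjusted p of 0.05 (background 0.00721%). At an unadjusted p under 0.05 there were 2, against 7.76% of all genes, while edgeR and DESeq2 each called 0 (0.272% of all genes by DESeq2). Values were higher for 24 members (49.7% of all genes) and lower for 18, and the median log2 difference was 0.04, against -0.00 over all tested genes. Without KO MET/CAT 2 the count turned to 14 higher and 28 lower and the median to -0.21, without WT MET/CAT 1 to 20 higher and 22 lower, and without KO MET/CAT 1 the median was 0.26. Groups did not overlap for Cdk4, which was higher in KO, and for Prc1, which was lower, against 6.82% of genes separated upward and 7.01% downward. The smallest p-values were those of Kif20a (-2.02, SE 0.84, adjusted p = 0.605), the kinesin that carries the passenger complex to the midzone, Rrm2 (0.90, SE 0.38, adjusted p = 0.605), Ccnd1 (-0.87, SE 0.42, adjusted p = 0.64), Cdk2 (0.49, SE 0.28, adjusted p = 0.673) and Prc1 (-1.58, SE 0.91, adjusted p = 0.678), the bundler of midzone microtubules. Kif20a shares 29.3% of its exon bases with Cdc23 on the opposite strand, and no label gives the strand setting of the counting. Other members overlap measured genes on the opposite strand too. Among them are Ccnd1 (23.4% with LTO1), Ccne2 (17.4% with Ints8), E2f8 (11.2% with Gm2788) and Prc1 (11.1% with Rccd1).

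By role, the 5 S phase enzymes all had higher values in KO MET/CAT than in WT MET/CAT livers, from 0.14 for Tyms, the thymidylate synthase, to 0.90 for Rrm2 on the log2 scale. Of the 4 genes of chromosome structure, Top2a had the lowest difference (-1.09) and Mki67 the highest (0.19). Cyclins and their kinases ran from -1.52 for Ccnb1 to 0.69 for Ccne1, the cyclin of the G1 to S step. Checkpoint and kinase genes ran from -0.34 for the centrosome kinase Aurka to 0.61 for Birc5, a subunit of the passenger complex. Spindle genes ran from -1.53 for Cenpf to 0.80 for the spindle motor Kif11, and midzone genes from -2.02 for Kif20a to 0.20 for Racgap1, a subunit of centralspindlin. Among the factors, Foxm1 differed by -1.02, the late repressor E2f8 by 0.06 and E2f1 by 0.77. With these SEs the difference of Mki67 has a 95% interval of -1.41 to 1.79 and that of Ccnb1 one of -4.34 to 1.29.

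The same question without the oncogenes compared KO GFP with WT GFP livers. Here 38 of 42 members had higher values in KO, where 44.9% of all genes did, and the median log2 difference was 0.96, against -0.07 over all tested genes. By limma 0 members passed the adjusted threshold (background 0.00721%), and 10 had an unadjusted p under 0.05, all of them higher, against 5.70% of all genes that were higher at that level. In either direction 15.5% of all genes passed that level. edgeR called 0 and DESeq2 called 2, Ect2 and Pcna, both higher (1.03% of the genes to which it gave an adjusted p). To 13 of the 42 members DESeq2 gave no adjusted p here. Groups did not overlap for 8 members with higher values (9.15% of all genes), namely Ect2, Pcna, Rrm2, Cdk2, E2f8, Kif11, Smc2 and Smc4. They did not overlap for 1 with lower values, the phosphatase Cdc25b (13.0% of all genes). The smallest p-values were those of Ect2 (2.10, SE 0.52, adjusted p = 0.269), the exchange factor that activates RhoA for cell cleavage, Pcna (0.67, SE 0.19, adjusted p = 0.272), Rrm2 (1.15, SE 0.38, adjusted p = 0.287), Mad2l1 (1.09, SE 0.38, adjusted p = 0.287), a checkpoint protein, and Rrm1 (0.88, SE 0.35, adjusted p = 0.29), the large subunit of ribonucleotide reductase.

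Individual libraries set the size of this difference. The median was 0.60 without KO GFP 3, with 4 members at an unadjusted p under 0.05, and 1.37 without WT GFP 1, with 19 such members. Library quality weights were 7.25, 0.616 and 0.693 in WT GFP livers and 6.06, 0.921 and 0.24 in KO GFP livers, in replicate order. That fit thus rested mostly on WT GFP 1 and KO GFP 1. With these weights the median turned to -0.17 and 7 members were called. Cdk2, Ect2, Pcna and Rrm2 were higher and Ccnb2, Cdc25b and Foxm1 lower. Shares of all genes in the fits of this paragraph are not given here. The 12 macrophage and Kupffer cell markers, none of them at 0 in any library, all had lower values in KO GFP livers, with summed levels of 1822 to 6062 normalized reads against 9519 to 12610 in WT GFP livers. So did all 6 measured of 8 T and NK cell markers, with sums of 31.64 to 67.01 in KO GFP livers and 98.73 to 128.2 in WT GFP livers, and Cd3e was at 0 in 3 of the 12 libraries and Ncr1 in 6. All 6 measured of 7 B and plasma cell markers had lower values too, with sums of 86.8 to 277.8 and 268.6 to 369 in the same groups, as had 5 measured of 6 cholangiocyte and progenitor markers, with sums of 186.2 to 446.7 and 357 to 431.8. Of all genes 55.1% had lower values. Hepatocyte markers had 4 higher and 4 lower values, and stellate cell and fibroblast markers 5 and 3. Endothelial markers had 2 higher and 5 lower values, neutrophil markers 3 and 4, and erythroid precursor markers 1 and 7. By limma 0 markers of any of these cell types were called. At an unadjusted p under 0.05 limma had 11 of the 12 macrophage and Kupffer cell markers, against 15.5% of all genes. It had 1 of 6 T and NK cell markers, 1 of 6 B and plasma cell markers and 0 of 5 cholangiocyte and progenitor markers. DESeq2 called 2 macrophage and Kupffer cell markers and 2 erythroid precursor markers (1.03% of all genes), and edgeR called 0 of either. The part of these cells in the difference was not tested.

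By role, the differences between KO GFP and WT GFP livers had a median of 0.67 among the S phase enzymes, from -0.08 for Tyms to 1.15 for Rrm2, and of 1.40 among the spindle genes. Genes of chromosome structure ran from 0.73 for Smc4 to 1.65 for Top2a. Cyclins and kinases ran from -0.77 for Cdc25b to 1.32 for Ccne2, the second E cyclin. Genes of the kinases, checkpoint and APC/C ran from 0.07 for Aurka to 1.38 for Plk1, the polo kinase of mitosis, spindle genes from 0.87 for Nusap1, a microtubule bundler, to 1.51 for Cenpf, and midzone genes from 0.65 for Kif20a to 2.29 for Anln, the anillin of the cleavage furrow. Foxm1 differed by 0.70 and E2f1 by 1.01. All members of the structure, checkpoint, spindle, midzone and factor groups had higher values in KO GFP livers, and the 4 members with lower values were Cdc25b, Cdk4, Tk1 and Tyms. None of these differences passed the test.

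**Figure D4:**
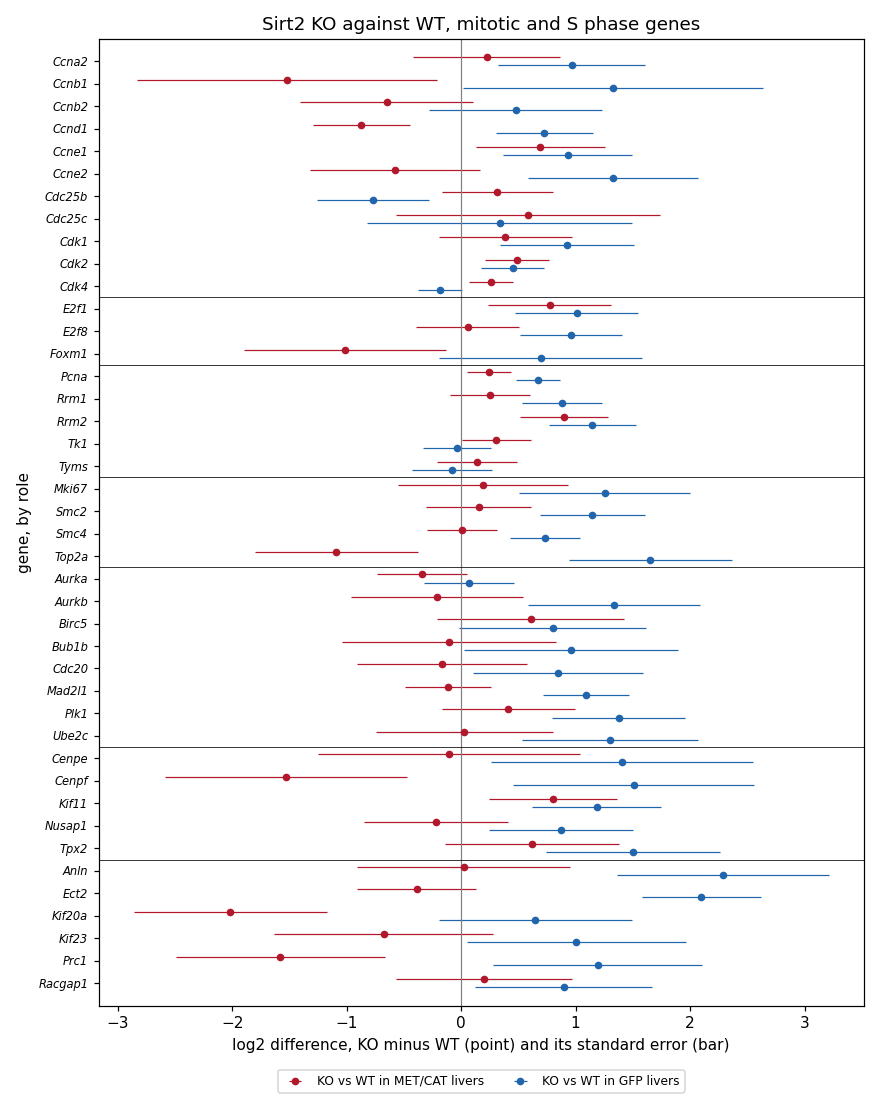
Points are log2 differences, KO minus WT, of each member in MET/CAT livers (red, upper point of each pair) and GFP livers (blue, lower), and bars are 1 standard error. Most blue points lie to the right of 0 (38 of 42), and red points lie on both sides (24 to the right).

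Between KO MET/CAT and KO GFP livers Ect2 was the 1 member that limma called, and it fell. It had 7.23, 13.6 and 11.7 normalized reads in KO MET/CAT livers and 35.4, 50.9 and 102 in KO GFP livers, with 17.9, 11.6 and 13.3 in WT MET/CAT livers and 21.9, 10.2 and 8.66 in WT GFP livers. The KO GFP libraries lay above all the others. Its log2 difference between KO MET/CAT and KO GFP livers was -2.33 (SE 0.52, limma adjusted p = 0.0461). This was 1 of 42 members, where 1.25% of all genes were called. Leaving out any 1 library ended the call except in the fit without WT MET/CAT 1, with adjusted p between 0.0446 and 0.169. It was also lost with the block on replicate number, with the 6 KO libraries alone and with a filter of any value above 0, and over all settings tried the difference lay between -2.67 and -1.71.

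Of the members, 36 had lower values in KO MET/CAT than in KO GFP livers and 6 had higher (53.2% of all genes), and the median log2 difference was -0.76, against 0.05 over all tested genes. At an unadjusted p under 0.05 there were 7, all lower. Of all genes 8.07% were lower at that level, and 20.3% passed it in either direction. Groups were separated downward for 4, Ect2, Pcna, Mad2l1 and Smc2 (10.7% of all genes), and upward for 0 (14.4%). edgeR called 2 (1.46% of all genes) and DESeq2 4 (7.11%). After Ect2 came Pcna (-0.78, SE 0.19, adjusted p = 0.0642), Mad2l1 (-1.47, SE 0.38, adjusted p = 0.0727), Rrm1 (-1.02, SE 0.35, adjusted p = 0.14) and Ccne2 (-1.93, SE 0.74, adjusted p = 0.177). Mki67 differed by 0.23 (SE 0.75) and Cdk1 by -0.12 (SE 0.58), and the groups overlapped for both of these markers. The median was -0.38 without KO MET/CAT 1, and -0.09 with library quality weights. This comparison shares the KO GFP libraries with the comparison of KO GFP and WT GFP livers.

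In WT livers the oncogene comparison gave 0 of 42 members by limma, where 0.339% of all genes were called. There were 3 at an unadjusted p under 0.05 (14.8% of all genes), and edgeR and DESeq2 called 0 members, against 0.526% and 4.09% of all genes. Values were higher in WT MET/CAT than in WT GFP livers for 27 members (48.6% of all genes) and lower for 15, with a median log2 difference of 0.26, against -0.01 over all tested genes. Groups did not overlap for Aurka, which was higher (10.5% of all genes), and for Cdc25b, Cdk2 and Cdk4, which were lower (10.3%). The smallest p-values were those of Tk1 (-0.89, SE 0.30, adjusted p = 0.191), Cdk4 (-0.52, SE 0.19, adjusted p = 0.234), Plk1 (1.27, SE 0.58, adjusted p = 0.332), Cdk2 (-0.58, SE 0.28, adjusted p = 0.344) and Cdc25b (-0.96, SE 0.49, adjusted p = 0.386). Cdk4 shares 19.7% of its exon bases with Tspan31 on the opposite strand. All 6 genes of the midzone had higher values in WT MET/CAT livers, and 4 of 5 S phase enzymes had lower values. The median was 0.00 without WT GFP 2, 0.60 without WT GFP 1, and -0.47 with quality weights, under which 6 members were called lower. The share of all genes called under these weights is not given here.

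Averaged over both genotypes, Pcna fell in MET/CAT livers against GFP livers by 0.57 on the log2 scale (SE 0.14, limma adjusted p = 0.0336). It was 1 of 42 members called, where 3.80% of all genes were. Pcna averaged 450.6 ± 51.9 normalized reads in KO MET/CAT livers and 379.4 ± 32.3 in WT MET/CAT livers, with 775.5 ± 94.8 in KO GFP livers and 487.8 ± 81.2 in WT GFP livers (SD, n = 3 each). The call remained in 4 of the 12 fits that left out 1 library, with adjusted p between 0.0348 and 0.106, and ended without WT GFP 1 or 3, KO GFP 1 or 2, WT MET/CAT 2 or 3, or KO MET/CAT 1 or 3. Tk1 (-0.72, SE 0.21, adjusted p = 0.0789), Mad2l1 (-0.87, SE 0.27, adjusted p = 0.0891), Ect2 (-1.09, SE 0.37, adjusted p = 0.129) and Rrm1 (-0.71, SE 0.25, adjusted p = 0.138) followed. edgeR called 2 members (4.46% of all genes) and DESeq2 5 (8.22%). Lower values were seen for 30 members and higher for 12 (51.9% of all genes), and 8 had an unadjusted p under 0.05, all lower. Of all genes 8.00% were lower at that level, and 17.9% passed it in either direction. The median was -0.26, against 0.02 over all tested genes, and -0.04 without KO MET/CAT 1. Neutrophil markers rose in the same comparison, with 6 of 7 measured genes called and sums of 317 to 3085 normalized reads in MET/CAT libraries against 65.5 to 185.8 in GFP libraries. Of the 8 listed, Ly6g was at 0 in 9 libraries, Cxcr2 and Mmp8 in 5 each and Ngp in 2. The part of these cells in the difference was not tested.

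Averaged over both plasmids, KO livers had higher values than WT livers for 33 members (43.5% of all genes) and lower for 9, with a median log2 difference of 0.46 against -0.05 over all tested genes. By limma 0 members passed (background 0.0144%), and 8 had an unadjusted p under 0.05, all higher. Of all genes 3.20% were higher at that level, and 8.11% passed it in either direction. edgeR called 0 and DESeq2 1, Rrm2 (0.293% of all genes). The first by p were Rrm2 (1.02, SE 0.27, adjusted p = 0.508), Pcna (0.46, SE 0.14, adjusted p = 0.536), Kif11 (0.99, SE 0.40, adjusted p = 0.579), Cdk2 (0.47, SE 0.20, adjusted p = 0.584) and E2f1 (0.89, SE 0.38, adjusted p = 0.592). Rrm2 differed by 0.90 in MET/CAT and 1.15 in GFP livers, Kif11 by 0.80 and 1.18, Cdk2 by 0.49 and 0.45, and E2f1 by 0.77 and 1.01. Pcna was less even. It averaged 450.6 normalized reads in KO and 379.4 in WT MET/CAT livers, which overlapped. In GFP livers it averaged 775.5 and 487.8, without overlap. Without KO GFP 3, 2 members instead of 8 had an unadjusted p under 0.05, and without WT GFP 1 there were 15. There were 3 without WT GFP 2, 3 higher and 1 lower without KO MET/CAT 2, 4 without KO GFP 2, WT MET/CAT 2 or WT MET/CAT 3, 5 without WT GFP 3 and 13 without KO GFP 1. Shares of all genes in these fits are not given here. With library quality weights 20 members had higher and 22 lower values.

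Whether the difference between KO and WT depended on the plasmid was tested with the interaction, KO minus WT in MET/CAT livers less that in GFP livers. By limma 0 of 42 members passed, as did 0% of all genes, and 6 had an unadjusted p under 0.05, all lower. Of all genes 6.20% were lower at that level, and 15.5% passed it in either direction. edgeR and DESeq2 called 0 members, the second against 1.27% of all genes. The smallest p-values were those of Ect2 (-2.49, SE 0.74, adjusted p = 0.265), Top2a (-2.74, SE 1.01, adjusted p = 0.268), Ccnd1 (-1.60, SE 0.60, adjusted p = 0.268), Mad2l1 (-1.20, SE 0.53, adjusted p = 0.308) and Kif20a (-2.66, SE 1.19, adjusted p = 0.311). The median interaction was -0.98, against 0.04 over all tested genes, and 36 of 42 values were below 0 and 6 above it (52.5% of all genes). It was 0.42 with library quality weights.

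Other genes of the cycle were read from lists that exclude the members. Of 62 other mitosis genes 56 were measured, with 0 called by limma in KO MET/CAT against WT MET/CAT livers (median 0.01) and 0 in KO GFP against WT GFP livers (median 1.12, 46 higher, where 44.9% of all genes were). Of 46 other S phase genes 43 were measured, with 0 called in either comparison and medians of 0.17 and 0.47. Of 25 G1 regulators and E2F and DREAM factors 24 were measured, with 0 called and medians of 0.13 and 0.28. All 16 subunits and coactivators of the APC/C were measured, with 0 called and medians of 0.19 and -0.27, and of 18 CDK inhibitors and brakes 17 were measured, with 0 called and medians of 0.20 and 0.11. Over the 156 measured genes of these 5 lists, 11 (7.05%) had an unadjusted p under 0.05 in the MET/CAT livers, against 7.76% of all genes, and 21 (13.5%) in the GFP livers, against 15.5%. edgeR called 0 in either, and DESeq2 called 1 and 2, against 0.272% and 1.03% of all genes. The genes with the smallest p were Cks1b (1.23, SE 0.33, adjusted p = 0.495), a CDK subunit, in MET/CAT livers and Wee1 (2.39, SE 0.58, adjusted p = 0.247), the kinase that holds CDK1 inactive, in GFP livers.

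The limma calls among these lists came in the comparisons of plasmids. Averaged over genotypes, limma called 7 of the 156 genes in MET/CAT against GFP livers (3.80% of all genes), edgeR 9 (4.46%) and DESeq2 18 (8.22%). At an unadjusted p under 0.05 limma had 42 (26.9%), against 17.9% of all genes. Averaged over genotypes, 4 of 17 measured CDK inhibitors and brakes passed by limma in MET/CAT against GFP livers, where 3.80% of all genes did, and 3 of them rose and 1 fell. Cdkn1a, the CDK inhibitor p21, had 3352, 3540 and 975.5 normalized reads in KO MET/CAT livers and 2467, 164.5 and 3759 in WT MET/CAT livers, with 111.4, 307.4 and 326.3 in KO GFP livers and 144.6, 74.79 and 57.17 in WT GFP livers. It rose by 3.54 (SE 0.64, limma adjusted p = 0.00813), although WT MET/CAT 2 lay within the range of the GFP libraries, and remained called in all 12 fits that left out 1 library. Btg2, an antiproliferative gene that p53 induces, rose by 2.02 (SE 0.38, adjusted p = 0.0097), likewise in all 12 fits, and Btg1 by 0.80 (SE 0.19, adjusted p = 0.0301), in 4 of 12 with an adjusted p of at most 0.0749. Wee1 fell by 1.63 (SE 0.41, adjusted p = 0.0424), in 2 of 12 fits with an adjusted p of at most 0.118. Its levels were 77.8 to 298.3 normalized reads in KO GFP livers and 12.2 to 48.5 in the other 9 libraries.

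In KO livers alone limma called 4 of the 156 genes in MET/CAT against GFP livers (1.25% of all genes), edgeR 4 (1.46%) and DESeq2 18 (7.11%). Btg2 rose there by 2.86 (SE 0.54, limma adjusted p = 0.0227) and Wee1 fell by 2.72 (SE 0.58, adjusted p = 0.0396). Cdk6, the other kinase of D cyclins, fell by 1.01 (SE 0.21, adjusted p = 0.0396) and Mad1l1, the checkpoint partner of Mad2l1, rose by 1.10 (SE 0.23, adjusted p = 0.0386). Of the 12 fits that left out 1 library, Btg2 remained called in 10 (lost without KO GFP 1 or KO GFP 2), Wee1 and Mad1l1 in 4 each and Cdk6 in 3. The highest adjusted p in those fits were 0.0758 for Btg2, 0.137 for Wee1, 0.136 for Mad1l1 and 0.133 for Cdk6. Averaged over genotypes, Cenpa, the centromeric histone H3 variant, fell by 1.04 (SE 0.22, adjusted p = 0.0188), Chaf1b, a histone chaperone subunit of S phase, fell by 1.32 (SE 0.33, adjusted p = 0.0421) and Mad1l1 rose by 0.73 (SE 0.16, adjusted p = 0.0249). Cenpa remained called in 10 of the 12 such fits (lost without WT GFP 1 or WT GFP 2), Mad1l1 in 7 and Chaf1b in 3, with adjusted p of at most 0.0627, 0.073 and 0.116. The 43 measured S phase genes outside the members had 40 lower values in that comparison with a median of -0.60, and the 56 measured mitosis genes had 41 lower values and a median of -0.33, where 48.1% of all genes had lower values. In WT livers limma called 0 of the 156 genes of these 5 lists, where 0.339% of all genes were called. At an unadjusted p under 0.05 there were 20 (12.8%), against 14.8% of all genes. edgeR called 1 and DESeq2 2, against 0.526% and 4.09% of all genes. Among the replication licensing genes, which act around helicase loading, limma called Mcm10 (-2.98, SE 0.40, adjusted p = 0.00887) and Gmnn (-1.87, SE 0.34, adjusted p = 0.0324) there, both lower. These were 2 calls of 17 measured, where the 42 members gave 0. The difference between these counts was not tested.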

How the data were processed

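RNA of whole liver was measured in 12 libraries, 3 in each of 4 groups. The submitters' processing notes name HISAT2 2.0.4, HTSeq 0.11.2 and the build GRCm38, and no label names the normalization tool or the strand setting. What the authors deposited is a signal for each gene, its read count divided by 1 factor per library: 0.753 to 1.204 per read, with whole reads recovered for 100% of values within 0.001 reads. In R 4.3.3, limma 3.58.1 with a mean-variance trend was fitted to log2(value + 1) over all 12 libraries and the 13871 genes with at least 10 in at least 3 libraries, with 4 group means, Benjamini-Hochberg adjustment over all genes and a threshold of 0.05. Fold changes on that scale understate changes of low genes. edgeR 4.0.16 and DESeq2 1.42.0 were run on the recovered reads. Exon lengths came from GENCODE M21 and promoters from RefSeq.

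Members and lists were chosen with earlier results of these data known. Named were 8 role markers, each called member (or the 5 smallest p where fewer were called), the extremes of each role between KO and WT, and, of the other lists, called genes or those with the smallest p. The libraries were not treated as paired, since no label says what a replicate number marks. Of 18 same-numbered pairs 5 correlated over 0.1, which does not settle whether the numbers pair them. Replicates of a group differed by more than sampling noise (chi-square per gene 37.8 to 232). The fit was tested on simulated data.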

Additional observations from a re-analysis of the deposited data

How the results depend on the processing

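The 5 members with the smallest p in each comparison, 35 results, kept their direction under the other settings. Of 816 values 762 kept direction and side of the threshold. Picking by p in the same data favours a kept direction, and all but Ect2 in KO livers and Pcna averaged over genotypes started uncalled. Most of the 762 are thus results that stayed uncalled. The Ect2 call remained in 1 of 12 fits that left out 1 library and 8 of 11 other settings, and the Pcna call in 4 of 12 and 11 of 11. The role extremes held less well: between KO GFP and WT GFP livers 9 of 14 changed direction under at least 1 other setting, 8 of them with library quality weights, under which Foxm1 was called lower, and between KO MET/CAT and WT MET/CAT livers 5 of 14 did. With library quality weights 7 members were called between KO GFP and WT GFP livers (median -0.17), 6 between WT MET/CAT and WT GFP livers (median -0.47), 3 between KO MET/CAT and KO GFP livers (median -0.09), 1 between KO and WT averaged over plasmids and 6 between MET/CAT and GFP averaged over genotypes, and the median interaction was 0.42. In the GFP groups these weights lay mostly on WT GFP 1 (7.25) and KO GFP 1 (6.06). DESeq2 called 2 members between KO GFP and WT GFP livers, 4 between KO MET/CAT and KO GFP livers, 1 for KO averaged and 5 for MET/CAT averaged. It gave no adjusted p to 13 members between KO GFP and WT GFP livers and to 3 in the interaction. The same held for 2 members between KO MET/CAT and WT MET/CAT livers, 2 between KO MET/CAT and KO GFP livers and 1 for KO averaged. Between KO MET/CAT and KO GFP livers, where limma called 1, the count was 2 with edgeR, with equal library totals and with the length trend removed. It was 0 with the 6 libraries alone and with a filter of any value above 0, and 0 to 1 when 1 library was left out. A filter of at least 20 in at least 6 libraries also gave 0, but it kept 32 members and removed Ect2 before the fit. For MET/CAT averaged over genotypes, where limma called 1, the count was 2 with quantile normalization and with edgeR, 3 with equal library totals, and 0 to 2 when 1 library was left out. Apart from edgeR and DESeq2, shares of all genes called under these settings are not given here. The cause of these changes was not tested.

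Same-numbered libraries had correlations of deviations from -0.195 to 0.28, which does not settle whether replicate numbers pair them. Between KO GFP and WT GFP livers these were -0.0231, 0.28 and 0.264 in replicate order. There KO GFP 2 and WT GFP 3 gave -0.263, and KO GFP 3 and WT GFP 2 gave -0.289. With a replicate block 0 members were called between KO MET/CAT and KO GFP livers and 2, Pcna and Tk1, for MET/CAT averaged over genotypes.

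Median SE was 0.64 for members and 0.33 for all genes on the log2 scale in the comparisons of 2 groups.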
